A study of Mus musculus with 6 samples.

Results

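The genes described here are 9 immediate early genes: Fos, Fosb, Jun, Junb, Jund, Egr1, Atf3, Dusp1 and Nr4a1. They were taken by name. A probe set counted when the platform annotation gave it exactly 1 gene symbol and that symbol was among these, and where a gene had several such probe sets, the one with the highest mean over the arrays stood for it. All 9 genes were found, of 8251 genes on the array with such a probe set. Together they had 14 of the 12422 probe sets that are not controls. Of these genes, 5 had a single probe set and 4 had several.

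Messenger RNA of mouse spinal cord was measured on 6 Affymetrix arrays, 1 for each of 3 genotypes at 75 and 110 days of age, in a study of inherited motor neuron disease caused by mutant superoxide dismutase (SOD1). The nontransgenic controls were B6SJL mice. A second control carried a WT-SOD1 transgene, with the strain given as B6SJL-WT-SOD1 at 75 days and no strain label at 110 days. The G93A-SOD1 mice, whose transgene encodes the disease-causing form, were labelled B6SJL-G93A-SOD1 at 75 days and B6SJL-G93A-SOD1H at 110 days. Per the series' design text, the G93A-SOD1 mice were presymptomatic at the younger age and had tremor and partial paralysis at the older one, and WT-SOD1 mice had no disease phenotype at either. Each array held RNA from 4 spinal cords and was hybridised a single time, so the spread between animals of one group cannot be seen. The sources used here give no sex for the mice and no promoter or copy number for the transgenes. The nontransgenic and WT-SOD1 arrays are called disease-free below.

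Immediate early genes are transcribed within minutes of a stimulus, without new protein synthesis, when MAP kinase, calcium and cyclic AMP signals activate transcription factors already present in the cell. Fos and Jun proteins pair through leucine zippers to form AP-1, a factor that binds DNA and switches on later genes. In spinal cord, Fos is widely used as a marker of recently active neurons, and Jun and Atf3 are known for their induction in motor neurons whose axons are injured. Dusp1, a phosphatase that inactivates MAP kinases, is induced by the same signals and limits them.

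The promoters of 3 of these genes are shown because their RNA levels are the ones the results turn on: Fos, Atf3 and Dusp1. Each run gives 250 bases before and 50 bases after the annotated start, on the gene's own strand, from RefSeq on build GRCm38.p6. Capitals mark TGACG in either orientation, which is the core of the cyclic AMP response element bound by ATF and CREB factors, and TATAAA, the TATA box. The Fos promoter lies at chr12:85473640-85473939 on the plus strand, that of Atf3 at chr1:191183284-191183583 on the minus strand, and that of Dusp1 at chr17:26508423-26508722 on the minus strand.
Fos: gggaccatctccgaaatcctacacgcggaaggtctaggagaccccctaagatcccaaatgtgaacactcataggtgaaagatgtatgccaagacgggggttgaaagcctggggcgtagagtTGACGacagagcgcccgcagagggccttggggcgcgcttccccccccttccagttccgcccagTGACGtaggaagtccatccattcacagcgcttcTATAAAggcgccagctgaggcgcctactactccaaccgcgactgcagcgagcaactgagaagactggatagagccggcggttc
Atf3: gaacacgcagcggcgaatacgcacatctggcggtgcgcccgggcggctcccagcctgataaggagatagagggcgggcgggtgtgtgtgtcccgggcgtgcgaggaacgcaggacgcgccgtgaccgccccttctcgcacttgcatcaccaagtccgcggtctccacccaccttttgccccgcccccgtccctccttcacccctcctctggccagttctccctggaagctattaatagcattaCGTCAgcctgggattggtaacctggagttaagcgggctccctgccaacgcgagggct
Dusp1: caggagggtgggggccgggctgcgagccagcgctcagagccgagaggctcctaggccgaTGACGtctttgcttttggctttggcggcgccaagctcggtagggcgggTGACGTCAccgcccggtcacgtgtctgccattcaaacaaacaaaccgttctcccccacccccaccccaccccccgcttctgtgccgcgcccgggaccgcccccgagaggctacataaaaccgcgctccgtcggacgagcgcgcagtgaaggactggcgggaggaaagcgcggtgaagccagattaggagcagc

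In the Fos promoter the cores began 129 and 66 bases before the start and the TATA box 33 bases before it. The Atf3 promoter had a single core, as CGTCA, 7 bases before the start. Dusp1 had the full element TGACGTCA 143 bases before the start, which holds TGACG on both strands, and a further core 191 bases before it. Promoters of 8 of the 9 genes, all but Egr1, were matched. Of these, 6 held TGACG on either strand, against 20.8% of all 32841 promoters of the same length. The 6 were Atf3, Dusp1, Fos, Fosb, Junb and Nr4a1. The full element, which always contains the core, was in 1 of the 8 and in 1.79% of all promoters. TATAAA was in 2 of the 8, Fos and Junb, against 13.6%. In Junb it began at base 1 after the start and not before it as in Fos. The AP-1 site TGANTCA was in 0 of the 8 windows against 7.81%, and the serum response CArG box in 0 against 1.63%. These matches describe letters in a short window and do not show that a factor is bound. Sites outside the window were not sought.

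The arrays had similar medians, from 77.7 to 80.9 intensity units. Between 24.6% and 25.9% of probe sets on each lay at or under the floor of 31, the 25th percentile of all values, to which lower values were raised before log2 was taken. Of 16 Hox genes, which mark cord tissue, 0 were at or under the floor on every array, whereas of 4 motor neuron markers Isl1 was at or under it on all 6 arrays. The mouse Sod1 probe set read 1037 and 1498 in nontransgenic cord and between 1583 and 1906 on the 4 transgenic arrays. The disease-free arrays differed in ways that genotype and age do not order. The summed level of 10 cerebellar granule and Purkinje markers was 6146 in nontransgenic cord at 75 days and 6650 in WT-SOD1 cord at 110 days, against 4772 and 4644 on the other disease-free arrays. The G93A-SOD1 arrays had the lowest sums of the 6, with 3831 at 75 days and 3425 at 110 days, and at each age 8 of 9 tested cerebellar markers lay below 0 against disease-free cord, with 0 called. Pvalb, also a listed muscle marker, was the largest part of each sum. At 75 and 110 days it read 2968 and 2678 in nontransgenic, 3034 and 2931 in WT-SOD1 and 2614 and 2186 in G93A-SOD1 cord. The bacterial spike-in controls averaged 1198 and 1590 on that first pair of arrays and 850 and 696 on the other pair. Microglial markers set the diseased array apart: 14 of them summed to 9076 in G93A-SOD1 cord at 110 days and to between 2055 and 2586 on the other arrays, with Ptprc and Fcer1g at or under the floor throughout.

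Differences were tested with limma on log2 intensities, with each G93A-SOD1 array set against the disease-free arrays of its age and p-values adjusted by the Benjamini-Hochberg method over 6737 probe sets. Only probe sets above 79.7, the median of all values, on 1 array or more were tested. All 9 representative probe sets passed this filter, as did 2 further probe sets of these genes, and 3 did not. The lone G93A-SOD1 array of an age was assumed to vary like the disease-free ones. The p-values therefore rest on how far arrays of unlike genotype differ, and not on animals.

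By their representative probe sets, 0 of the 9 genes passed an adjusted p of 0.05 in G93A-SOD1 cord at 110 days, where limma called 102 of all 6737 probe sets, or 1.51%. The median log2 difference of the members was 0.11, with a range from -0.29 for Dusp1 to 0.78 for Fos, and 7 of 9 lay above 0. Over all tested probe sets the median was -0.02 and 44.9% lay above 0. Adjusted p-values of the members ran from 0.535 to 0.991, and 0 had an unadjusted p below 0.05, against 10.3% of all tested probe sets.

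Most of the genes varied little over the arrays. The highest array exceeded the lowest by a median of 1.29-fold over the 9 genes, and also by 1.29-fold over all tested probe sets. Jun spanned 1.08-fold, the narrowest range, and Fos 2.47-fold, the widest. Fos was the 1 member to span at least 2-fold, which 4.14% of tested probe sets did.

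**Figure D1:**
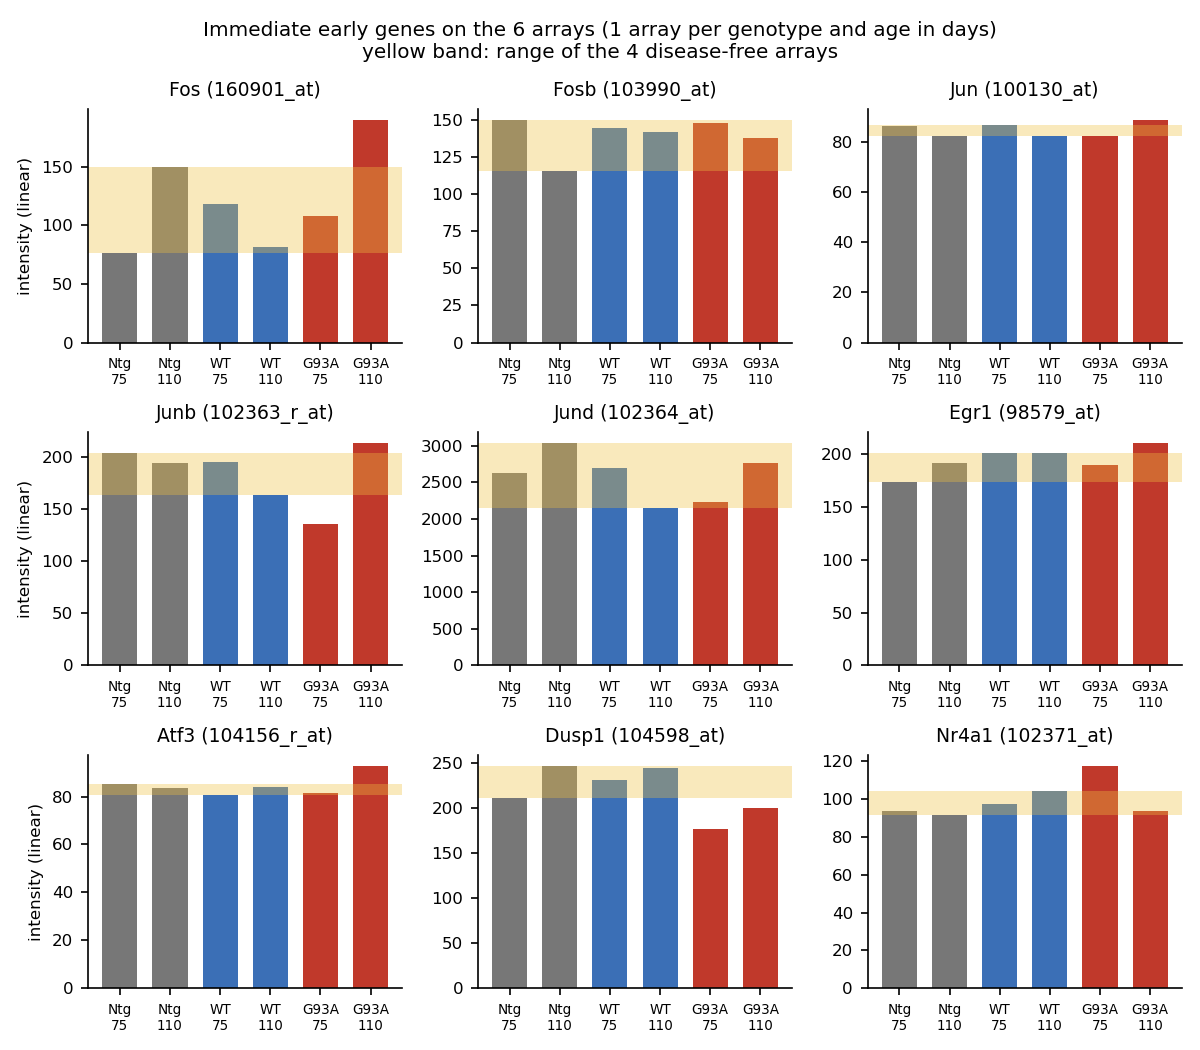
Intensity of the probe set that stands for each of the 9 genes on each of the 6 arrays. Ntg is nontransgenic and each value is 1 array of 4 pooled cords. Fos spans 2.47-fold over the arrays, whereas Jun spans 1.08-fold.

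Fos, the founding subunit of AP-1, read 76.7 in nontransgenic cord at 75 days and 149.6 at 110 days. In WT-SOD1 cord it read 118 at 75 days and 81.5 at 110 days. In G93A-SOD1 cord it read 108 at 75 days and 189.7 at 110 days. The diseased array at 110 days was thus above all 4 disease-free arrays, and the presymptomatic one was within their range. The disease-free arrays disagreed with each other in opposite directions at each age: WT-SOD1 exceeded nontransgenic by 0.62 on the log2 scale at 75 days and lay at -0.88 from it at 110 days.

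At 110 days the log2 difference of Fos from disease-free cord was 0.78 ± 0.37 (SE; 1 array against 2), a 1.72-fold higher level, with a limma adjusted p of 0.554. The difference was 0.34 against the nontransgenic array and 1.22 against the WT-SOD1 array of that age. Without the WT-SOD1 array at 110 days it was 0.34, and without the nontransgenic array it was 1.22. The lower Fos values among disease-free arrays were on the nontransgenic array at 75 days and the WT-SOD1 array at 110 days, the pair with the higher cerebellar marker sums and spike-in levels. With the spike-in level as a term the difference was 0.20, and the part of cerebellar tissue in it was not tested. With a WT-SOD1 genotype term the difference stayed at 0.78 and the limma adjusted p was 0.0428. That fit had 1 residual degree of freedom, so its p-value took little from the spread of Fos itself. The second Fos probe set, 161716_at, read from 16.6 to 23.6, at or under the floor on all 6 arrays, and was not tested.

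**Figure D2:**
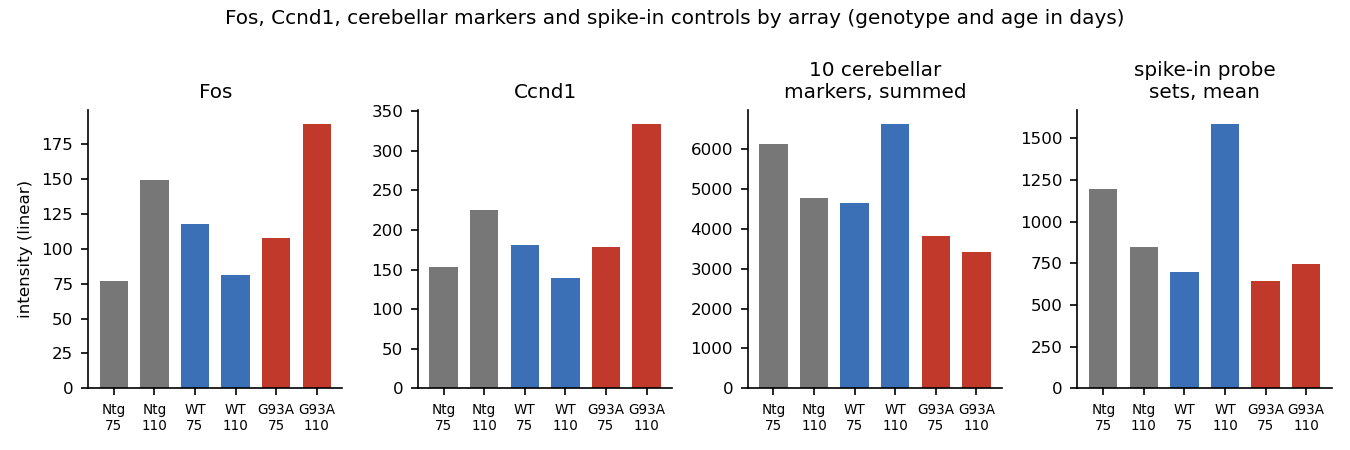
Fos intensity on each array beside the summed intensity of cerebellar markers and the mean of the spike-in controls (Ntg, nontransgenic). The nontransgenic array at 75 days and the WT-SOD1 array at 110 days have Fos at 76.7 and 81.5 and cerebellar sums of 6146 and 6650.

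By a rule of likeness, the genes whose log2 levels followed those of Fos most closely over the 6 arrays were sought among 199 genes that also spanned at least 2-fold. They were Ccnd1 (Pearson r = 0.96), which encodes cyclin D1, Lamp2 (0.92), which encodes a lysosomal membrane protein, and Pros1 (0.84), which encodes protein S. All of these r values are descriptions over the same 6 arrays. Lamp2 read from 259 to 390.2 on the first 5 arrays and 559 in G93A-SOD1 cord at 110 days.

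Fosb, a second Fos family subunit, read from 116 to 149.9 on the disease-free arrays, 148 in G93A-SOD1 cord at 75 days and 138 at 110 days. Both G93A-SOD1 arrays were within the disease-free range. The log2 differences were 0.0062 ± 0.16 and 0.11 ± 0.16 at the 2 ages, with limma adjusted p of 0.995 and 0.976.

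Jun, the partner of Fos in classical AP-1 and a substrate of JNK kinases, kept the narrowest range of the 9 genes. It read 86.3, 82.4, 86.7 and 82.1 on the disease-free arrays, in the order nontransgenic at 75 and 110 days and WT-SOD1 at 75 and 110 days. It read 82.2 in G93A-SOD1 cord at 75 days and 88.7 at 110 days. The diseased array was above the disease-free ones by a margin smaller than their own spread. The log2 difference at 110 days was 0.11 ± 0.13, with a limma adjusted p of 0.945.

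Junb, a Jun family member with weaker activation of many AP-1 targets, was represented by 102363_r_at, an identifier whose suffix marks relaxed probe selection. It read 203 and 194 in nontransgenic cord at 75 and 110 days and 194 and 163 in WT-SOD1 cord. In G93A-SOD1 cord it read 135 at 75 days and 213 at 110 days. The presymptomatic array was thus below all 4 disease-free arrays and the diseased one above them. The log2 difference was -0.56 ± 0.15 at 75 days, with an unadjusted p of 0.00811 and a limma adjusted p of 0.460, and 0.26 ± 0.15 at 110 days, with 0.679.

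The other Junb probe set, 102362_i_at, whose suffix marks an incomplete probe set, gave a different pattern. It read from 103 to 109.8 on the disease-free arrays and 134 and 136 in G93A-SOD1 cord at 75 and 110 days. Both G93A-SOD1 arrays were above the disease-free range, as they were for 6.23% of all tested probe sets. The log2 differences were 0.29 ± 0.13 and 0.37 ± 0.13, with limma adjusted p of 0.529 and 0.363. The 2 probe sets of Junb therefore had opposite signs at 75 days, and no direction can be given for the gene at that age.

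Jund, the Jun family member with high constitutive expression, read from 2143 to 3038 on the disease-free arrays. It read 2231 in G93A-SOD1 cord at 75 days and 2763 at 110 days, both within that range. The log2 differences were -0.25 ± 0.21 and 0.12 ± 0.21, with limma adjusted p of 0.713 and 0.985.

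Atf3, a stress-induced factor of the ATF family that pairs with Jun proteins, gave the single call among the 14 probe sets of these genes, and not from the probe set that represents it. That representative, 104156_r_at, read from 80.7 to 85.3 on the disease-free arrays, 81.5 in G93A-SOD1 cord at 75 days and 92.8 at 110 days. The diseased array was above the disease-free range. The log2 difference at 110 days was 0.15 ± 0.13, 1.11-fold, with a limma adjusted p of 0.880.

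The probe set 104155_f_at of the same gene read 62.5 and 53.9 in nontransgenic cord at 75 and 110 days, 57.9 and 67.4 in WT-SOD1 cord, and 67.7 and 166 in G93A-SOD1 cord. The array from diseased cord stood apart from the other 5, and the presymptomatic one exceeded the highest disease-free array by less than 1 unit. At 110 days the level rose 2.75-fold, a log2 difference of 1.46 ± 0.17 with a limma adjusted p of 0.00795. At 75 days the difference was 0.17 ± 0.17, with an adjusted p of 0.772. The change of this difference between the ages was 1.29 ± 0.24, with an adjusted p of 0.115 in limma.

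This probe set passed the level filter only through the array on which it was high, so it had to differ to be tested. Without the filter its limma adjusted p was 0.332. It was not tested with a filter on the mean level. The other 10 alternatives kept the same filter, so they do not bear on this limit. In them its log2 difference lay between 1.30 and 1.63, with a limma adjusted p of at most 0.0267. Its suffix marks probes shared by a family of similar sequences, so other transcripts may contribute. The third probe set, 161645_r_at, read from 45.3 to 70.1 on the disease-free arrays and 54.5 and 47.3 in G93A-SOD1 cord, within that range, and was not tested. The 3 probe sets of Atf3 thus differed in what they showed on the diseased array.

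**Figure D3:**
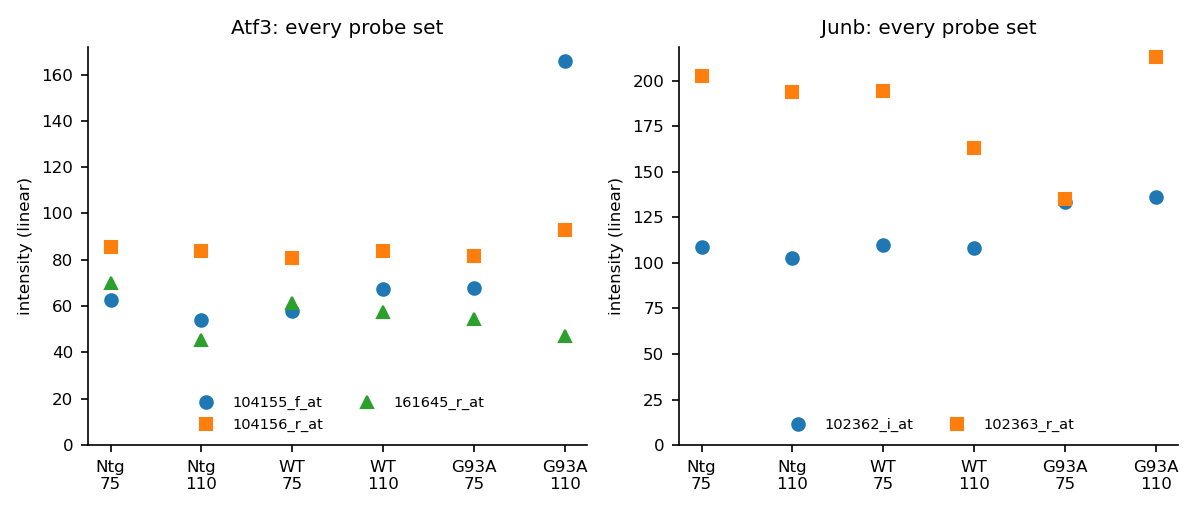
Intensity of every probe set of Junb and Atf3 on each of the 6 arrays (Ntg, nontransgenic). The Atf3 probe set 104155_f_at reads 166 in G93A-SOD1 cord at 110 days and from 53.9 to 67.7 on the other arrays.

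The same array had the high microglial marker sum given above. Of its 14 microglial markers 11 were tested and 10 rose there, against 1.51% of all tested probe sets called in either direction. Among those 10, Lyz2 and Aif1 passed the level filter only through this array and so had to differ to be tested. Of 9 astrocyte markers 2 rose. Gfap read 4442 against 1583 to 2206 on the disease-free arrays (limma adjusted p = 0.0304), and Fabp7 1177 against 338 to 461 (limma adjusted p = 0.0166). Among the 9, 4 lay above 0 and 5 below, with a median log2 difference of -0.03. Their summed level was 14900 against 10506 to 12254, and Gfap was the largest part of it on this array. Of 6 fibroblast markers tested, Igfbp2 and Fmod rose, with 501 against 138 to 178 and 153 against 71.2 to 80.4, while the summed level of that list, 4459, was within the disease-free range of 4441 to 4913. Of 12 neuronal markers 1 fell and 11 lay below 0, with a median of -0.47. Slc18a3, the vesicular acetylcholine transporter of motor neurons, read 160.2 there and from 171 to 207 on the disease-free arrays. The part of these cell types in the Atf3 and Fos values was not tested, and in whole cord fewer cells of a type cannot be told apart from less RNA per cell.

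Egr1, a zinc finger factor induced through serum response elements, read 174 and 191 in nontransgenic cord at 75 and 110 days and 201 at both ages in WT-SOD1 cord. It read 190.2 in G93A-SOD1 cord at 75 days, within the disease-free range, and 211 at 110 days, above it. The log2 differences were 0.02 ± 0.15 and 0.10 ± 0.15, with limma adjusted p of 0.975 and 0.970. A second probe set, 161802_i_at, was at or under the floor on 3 arrays and was not tested.

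Nr4a1, an orphan nuclear receptor and the receptor among these genes, read from 91.8 to 105 on the disease-free arrays. It read 118 in G93A-SOD1 cord at 75 days, above that range, and 93.8 at 110 days, within it. The log2 difference at 75 days was 0.30 ± 0.14, 1.23-fold, with a limma adjusted p of 0.541. At 110 days it was -0.06 ± 0.14, with an adjusted p of 0.991.

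Dusp1 was below the disease-free range on both G93A-SOD1 arrays, 1 of the 9 genes by their representative probe sets, where 15.6% of all tested probe sets were, a share that does not set these genes apart. It read 211 and 247 in nontransgenic cord at 75 and 110 days and 231 and 244 in WT-SOD1 cord. In G93A-SOD1 cord it read 177 at 75 days and 200.04 at 110 days. The log2 differences were -0.32 ± 0.14 at 75 days, 0.799 of the disease-free level, and -0.29 ± 0.14 at 110 days, 0.815 of it. The unadjusted p-values were 0.0482 and 0.0659 and the limma adjusted p-values 0.504 and 0.535, so neither passed the threshold. The differences kept their sign in each of the 12 alternatives. They lay between -0.39 and -0.26 at 75 days and between -0.35 and -0.26 at 110 days. In most alternatives the sign could not change. Filters, floors and the genotype term left the differences as they were. With both G93A-SOD1 arrays below every disease-free array, leaving out a disease-free array cannot reverse them. Only rescaling and the spike-in term could. At 75 and 110 days median scaling gave -0.30 and -0.30, quantile normalisation -0.30 and -0.26, and the spike-in term -0.36 and -0.35.

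Read by position alone, 5 of the 9 genes were above all 4 disease-free arrays in G93A-SOD1 cord at 110 days: Fos, Jun, Junb, Egr1 and Atf3. This held for 16.9% of all tested probe sets. Dusp1 was the 1 gene below, against 27% of all. Quantile normalisation added Jund to those above. At 75 days Nr4a1 was above, against 23.8% of all tested probe sets, and Junb and Dusp1 were below, against 34.7%, and either rescaling of the arrays added Fosb to those above. Apart from Fos, the margins were small: Jun exceeded its highest disease-free array with 88.7 against 86.7, Atf3 with 92.8 against 85.3, Egr1 with 211 against 201, and Junb with 213 against 203.

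At 75 days 0 of the 9 genes passed, and limma called 0% of all tested probe sets, with 664 at an unadjusted p below 0.05 and a smallest adjusted p of 0.178. The members' median log2 difference was -0.03, with 4 above 0 and 5 below, against -0.04 over all tested probe sets, of which 42.5% lay above 0. Junb and Dusp1 had unadjusted p-values below 0.05.

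The change of the G93A-SOD1 difference from 75 to 110 days asks whether the genes moved with the onset of symptoms beyond the change seen in disease-free cord. By the limma adjusted p 0 of 9 passed, against 0.416% of all tested probe sets. At an unadjusted limma p below 0.05 there was 1 of 9, against 6.23% of all. The median was 0.17 with 8 of 9 above 0, against 0.0046 and 50.8% over all. Junb had the highest value, 0.82 ± 0.22, with a limma adjusted p of 0.389, and 0.94 without the nontransgenic array at 110 days. Both values rest on 102363_r_at, and 102362_i_at gave 0.08. For Fos the change was 0.60 ± 0.52 and for Nr4a1 -0.36 ± 0.20, with limma adjusted p of 0.998 and 0.942.

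Age in disease-free cord was compared over the same fit. Of the members 0 of 9 passed, against 0.0148% of all tested probe sets. At an unadjusted limma p below 0.05 there were 0 of 9, against 3.10% of all. The members' median log2 difference between 110 and 75 days was 0.01. The values ran from -0.20 ± 0.13 for Fosb to 0.22 ± 0.30 for Fos, each with a limma adjusted p of 0.998. Fos differed in opposite directions in the disease-free genotypes: the difference between ages was 0.96 in nontransgenic and -0.53 in WT-SOD1 cord, and 0.82 in G93A-SOD1 cord. Leaving out 1 disease-free array at a time took the Fos age difference from -0.22 to 0.65.

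WT-SOD1 was compared with nontransgenic cord within the 4 disease-free arrays, adjusted for age, to show what the transgene does without disease. Again 0 of 9 members passed the limma threshold, against 0.104% of all tested probe sets. At an unadjusted limma p below 0.05 there were 0 members, against 1.17% of all. Their median log2 difference was 0.0013, from -0.23 ± 0.19 for Jund to 0.14 ± 0.19 for Egr1, each with an adjusted p of 1 in limma. This fit had 1 residual degree of freedom and infinite prior degrees of freedom, so the same standard error was used for every probe set and holds nothing of the gene's own spread. For Jund the difference was 0.04 at 75 days and -0.50 at 110 days.

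Other genes of the same pathway were counted from lists by role. Over all tested probe sets 1.51% were called at 110 days and 0% at 75 days, and 44.9% and 42.5% lay above 0. Of 14 tested relatives of AP-1 (other Fos, Maf, ATF and CREB factors), 0 rose and 0 fell in G93A-SOD1 cord at 110 days, 12 lay above 0 and the median log2 difference was 0.06. The higher values in that list were Nfe2l2, the oxidative stress factor Nrf2, and Ddit3, the stress factor CHOP. Nfe2l2 read from 105 to 122 on the disease-free arrays and 188 in diseased cord, a log2 difference of 0.72 ± 0.16 with a limma adjusted p of 0.106. Ddit3 read from 122 to 133 and 176, a difference of 0.46 ± 0.14 with an adjusted p of 0.242. For both genes the array from diseased cord was above the disease-free range, as for 16.9% of all tested probe sets, and neither difference passed.

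Among 29 other immediate early genes tested, 1 rose and 0 fell at 110 days, against 1.51% of all tested probe sets called. Their median was 0.03 and 17 lay above 0, against 44.9% of all tested probe sets. The gene that rose was Plat, which encodes tissue plasminogen activator. It read 244 and 243 in nontransgenic cord at 75 and 110 days, 278 and 227 in WT-SOD1 cord and 254 and 554 in G93A-SOD1 cord. The diseased array stood above all others, a 2.36-fold higher level, with a log2 difference of 1.24 ± 0.15 and a limma adjusted p of 0.00846. At 75 days the difference was -0.04, and 0 genes of the list passed.

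The upstream routes, which hold the MAP kinases, CREB and the serum response factors, had 24 tested genes with 0 called at either age. Their median log2 difference was 0.01 at 110 days and -0.16 at 75 days, where 17 of 24 lay below 0. Mapk8, which encodes the kinase JNK1 that phosphorylates Jun, read from 263 to 359 on the disease-free arrays and 190.0 and 197 in G93A-SOD1 cord at 75 and 110 days. Both G93A-SOD1 arrays were below the disease-free range, as they were for 15.6% of all tested probe sets. The difference was -0.77 ± 0.15 at 110 days, with a limma adjusted p of 0.0687, and -0.51 at 75 days, with 0.460. Camk2b, a subunit of calcium/calmodulin kinase II, read from 976 to 1313 on the disease-free arrays and 665 and 784 in G93A-SOD1 cord, also below that range, with limma adjusted p of 0.495 and 0.371.

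The brakes on MAP kinases other than Dusp1, which are further phosphatases and Spry and Spred proteins, had 9 tested genes with 0 called. At 110 days 7 lay below 0 with a median of -0.09, and at 75 days 6 lay below 0 with a median of -0.16. Ptprr, a phosphatase that binds ERK, read from 392.3 to 489.6 on the disease-free arrays and 258 and 353 in G93A-SOD1 cord. Spred2, an inhibitor of Ras signalling, read from 125 to 190.2 and then 91.2 and 115. Both genes were below the disease-free range at both ages, as were 15.6% of all tested probe sets. The limma adjusted p-values were 0.444 and 0.535 for Ptprr and 0.496 and 0.563 for Spred2.

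Genes with textbook AP-1 or Atf3 sites, together with injury-response genes, had 16 tested members, of which 0 rose and 0 fell. At 110 days 11 lay above 0 with a median of 0.21, and at 75 days also 11, with a median of 0.11. Ccnd1 belongs to this list as well as to the genes that followed Fos. It read from 140 to 225 on the disease-free arrays, 178 in G93A-SOD1 cord at 75 days and 334 at 110 days. The diseased array was above the others, and the log2 difference of 0.91 ± 0.27 had a limma adjusted p of 0.246. Mt1, a metallothionein, read from 1580 to 3249 on the disease-free arrays, 2323 at 75 days and 4116 at 110 days in G93A-SOD1 cord, with a log2 difference of 0.77 at 110 days and a limma adjusted p of 0.468.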

How the data were processed

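Poly(A) RNA of 4 pooled spinal cords per array was labelled with biotin and hybridised to Affymetrix arrays, per the labels' protocols. The authors deposited a linear intensity for each probe set on each array. Their probe summary and scaling are not given in the sources used here. Intensities were used as deposited, floored at 31 and log2 transformed. Of 12422 probe sets other than controls, the annotation gave 10833 exactly 1 symbol, 396 several and 1193 none. Symbols were checked through Entrez identifiers with a RefSeq table, which matched 10817 and changed 0.

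The linear models of limma 3.58.1 (R 4.3.3), with moderated variances and Benjamini-Hochberg adjustment at 0.05, were fitted on all 6737 tested probe sets. Disease-free cord and G93A-SOD1 cord at each age had a mean each, with 2 residual degrees of freedom and prior degrees of freedom of 5.13. WT-SOD1 was compared with nontransgenic cord on 4 arrays. The code was tested on simulated data. The precision is limited by 1 array per group. Named genes outside the 9 were those of each list that passed the threshold, or had its highest absolute log2 differences, and the 3 most like a member spanning 2-fold. Alternatives were other scalings, floors and filters, the spike-in level or WT-SOD1 as a term, other probe sets, and leaving out each disease-free array. The genes and lists were chosen with earlier results of these data known.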

Additional observations from a re-analysis of the deposited data

How the results depend on the processing

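Calls of the 9 genes moved by at most 1 under the alternatives run. Fits with the spike-in level or genotype as a term, or with 1 disease-free array left out, had 1 residual degree of freedom. Their p-values therefore rest on little of a gene's own spread. At 110 days the count of 0 became 1 with a WT-SOD1 genotype term (Fos, 0.78, limma adjusted p = 0.0428) and 1 with the probe set of second highest mean (Atf3, 104155_f_at). For the change between ages it ranged from 0 to 1 when disease-free arrays were left out, through Junb without the nontransgenic array at 110 days (0.94). Of 545 recomputed log2 differences 505 kept their direction and side of the threshold, 31 reversed, 8 passed the threshold newly and 1 lost it, Atf3 104155_f_at without the level filter. Many of the 505 could not change direction. The filters and the genotype term leave a difference as it was, as do the floors for probe sets above them. So does leaving out an array of the other age for a difference at 1 age. In these only the p-value could move.

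The furthest reversal was Junb at 75 days, from -0.56 to 0.29 by its second probe set, and Fos reversed to about its own size at 75 days (0.18 to -0.19) and for age (0.22 to -0.22). Scaling to 1 median gave Dusp1 -0.0029 for the change between ages and Jun -0.017 for WT-SOD1, which quantile normalisation gave as -0.014. The second probe set gave Junb 0.29 and Atf3 0.17 at 75 days, and 0.043 and 0.11 for WT-SOD1. The spike-in term gave Jund -0.11 at 110 days, Fos -0.19 and Egr1 -0.0048 at 75 days, and for age Jund 0.052, Atf3 -0.0014 and Atf3 104155_f_at -0.085. Leaving out 1 disease-free array gave at 110 days Fosb -0.035 to 0.25, Jund -0.14 to 0.37 and Nr4a1 -0.16 to 0.031. At 75 days it gave Fos -0.13 to 0.49, Fosb -0.021 to 0.033, Egr1 -0.082 to 0.13 and Atf3 -0.066 to 0.015. For the change between ages it gave Fosb -0.042 to 0.25, Egr1 -0.026 to 0.19 and Dusp1 -0.036 to 0.093. For age it gave Fos -0.22 to 0.65, Jund -0.31 to 0.19, Nr4a1 -0.060 to 0.13, Egr1 -0.039 to 0.17, Atf3 -0.027 to 0.054 and Atf3 104155_f_at -0.16 to 0.16. Apart from what the construction of an alternative shows, the cause was not tested.

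Over all probe sets the 102 calls at 110 days became 42 without a filter, 66 with a floor at the 40th percentile, 225 with the spike-in term and from 148 to 591 with 1 array left out, the highest without the WT-SOD1 array at 110 days. The 0 calls at 75 days became 50 without a filter, 43 with the genotype term and from 13 to 116 with 1 array left out, the highest without either disease-free array of 110 days. The 28 calls for the change between ages became 2 with median scaling, 3 with the higher floor, 16 with a filter on the mean, 76 without a filter, 78 with the spike-in term, 70 with the genotype term and from 51 to 135 with 1 array left out, the highest without the nontransgenic array at 110 days. The 1 call for age became 0 without a filter, 3 with the spike-in term and from 2 to 17 with 1 array left out. The 7 calls for WT-SOD1 became 0 with median scaling, with the higher floor, without a filter and with additive terms on all 6 arrays. The spike-in term and leaving out arrays could not be fitted for WT-SOD1 against nontransgenic cord. Each group is 1 array, and the lack of replicates limits every comparison. Signal at or under the floor limits the second probe sets of Fos and Egr1.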

Other observations

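Inducible heat shock genes, which encode chaperones and are switched on by stress through another route, were counted in the same fit. Over all tested probe sets 1.51% were called at 110 days, 0% at 75 days and 0.0148% with age. Those above 0 were 44.9%, 42.5% and 48.8%. In G93A-SOD1 cord at 110 days 1 of 10 tested fell and 9 lay below 0, with a median log2 difference of -0.56. At 75 days 0 were called and the median was 0.07, and with age in disease-free cord 1 rose and 9 lay above 0, with a median of 0.46. The gene called in each was Hspa1b, an inducible Hsp70 chaperone. It read 64.7 and 282 in nontransgenic cord at 75 and 110 days, 54.4 and 252 in WT-SOD1 cord and 137 and 56.4 in G93A-SOD1 cord. Disease-free cord was higher at the older age and G93A-SOD1 cord at the younger. The log2 difference of G93A-SOD1 cord was -2.24 ± 0.16 at 110 days, with a limma adjusted p of 0.00138, and the age difference in disease-free cord was 2.17 ± 0.13, with 0.00409.

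A list of genes known to be induced by glucocorticoid had 11 tested members. Dusp1 was not among them, and its log2 difference was -0.32 at 75 days and -0.29 at 110 days. Of the 11, 1 fell and 7 lay below 0 at 110 days, with a median of -0.08, against 1.51% of all tested probe sets called. At 75 days 0 were called and all 11 lay above 0, with a median of 0.43, against 42.5% of all above 0. The gene that fell was Zbtb16, a zinc finger repressor. It read 151 and 314 in nontransgenic cord at 75 and 110 days, 150.1 and 361 in WT-SOD1 cord and 233 and 173 in G93A-SOD1 cord, the same order of ages as Hspa1b. The log2 difference at 110 days was -0.96 ± 0.14, with a limma adjusted p of 0.0235. The probe set of Zbtb16 can cross-hybridise.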
